A study of Homo sapiens with 6 samples.

Results

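Histone lysine demethylases (KDM genes), histone deacetylases (HDAC genes) and sirtuins (SIRT genes) were examined in BT-549 cells, a human triple-negative breast cancer line. The members were chosen by symbol and are 35 of the 19792 genes listed, with 17 KDM, 11 HDAC and 7 SIRT genes. RNA-seq was performed on cells that carry an shRNA against WDR5, driven by a promoter that tetracyclines switch on, with puromycin resistance as the marker. There were 3 cultures given the vehicle (0.1% DMSO) and 3 given 500 ng/ml doxycycline (DOX) for 7 days, which switches on the shRNA. WDR5 is a shared subunit of the COMPASS H3K4 methyltransferase complexes. All 6 cultures carried the shRNA, and no line without it was among the samples.

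The value analysed here for each gene is the authors' mean normalized count over all 6 libraries, that is, the read count of the gene scaled for library size and averaged over vehicle and DOX together. It has no standard deviation, and it cannot say whether a gene differed between vehicle and DOX. The authors' own fold changes and p-values for that comparison were not used, so the comparison of DOX with vehicle is not reported here for any member. What follows is therefore a description of the RNA level of each eraser gene in these cells as a pool, with no test. Longer transcripts give more reads, so levels of different genes were compared after the mean normalized count was divided by the length in kilobases (kb) of the canonical transcript in GENCODE 44 (GRCh38), except where an undivided count is named. The order of genes close to each other has no error attached to it and is not a tested difference.

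Erasers remove the chemical marks that writers place on histone tails. Methyl groups on lysines 4, 9, 27 and 36 of histone H3 (H3K4, H3K9, H3K27 and H3K36) are removed by demethylases. KDM1A and KDM1B are flavin-dependent, and the other KDM members are iron-dependent enzymes of the Jumonji C family. KDM8 is grouped with the demethylases by its name, and no histone lysine is assigned to it here. Acetyl groups, which mark active chromatin, are removed by zinc-dependent HDACs and by NAD-dependent sirtuins. H3K4 methylation, the product of the COMPASS complexes, is the mark that KDM1 and KDM5 enzymes erase.

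The sum of the mean normalized counts over all genes was 26551206, and the 35 members held 0.202% of it. The depth of each library is unknown from these values. The line's labelled type was checked against markers. The mesenchymal genes VIM, FN1, CD44 and SPARC lay between 3631 and 22183 per kb, whereas the estrogen and progesterone receptor genes ESR1 and PGR had mean normalized counts of 0.790 and 0.801. The epithelial genes EPCAM and KRT5 had mean normalized counts of 1.30 and 0.909. CDH1 was at 59.6, KRT8 at 57.3 and KRT18 at 434.9 in mean normalized count. ERBB2 had a mean normalized count of 1221. The leukocyte gene PTPRC had a mean normalized count of 44.7 and the endothelial gene PECAM1 one of 2.86. CD3E had no row. WDR5, the targeted gene, had a mean normalized count of 1143, which averages cultures with and without DOX and so does not check the silencing.

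Of the 35 members, 34 reached a mean normalized count of 10, beside 13548 of the 19792 genes listed. The member that did not was KDM4E, at 0.370. A mean normalized count above 1000 was found for 16 members, 15 lay between 100 and 1000, and 3 lay between 10 and 100. Per kb of transcript, the members' median was 211.2, beside a median of 208.1 over the 13024 genes with a length whose mean normalized count reached 10 (the expressed genes). Of the members, 18 lay at or above that median gene, and 6 were above the upper quartile of 583.1 per kb. The middle member was at the 50.4 percentile of expressed genes and the highest, KDM1A, at the 91.8 percentile. Per kb of coding sequence only, 11 of the 35 lay at or above the median gene. The canonical transcripts of 10 members hold more untranslated than coding bases.

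**Figure D1:**
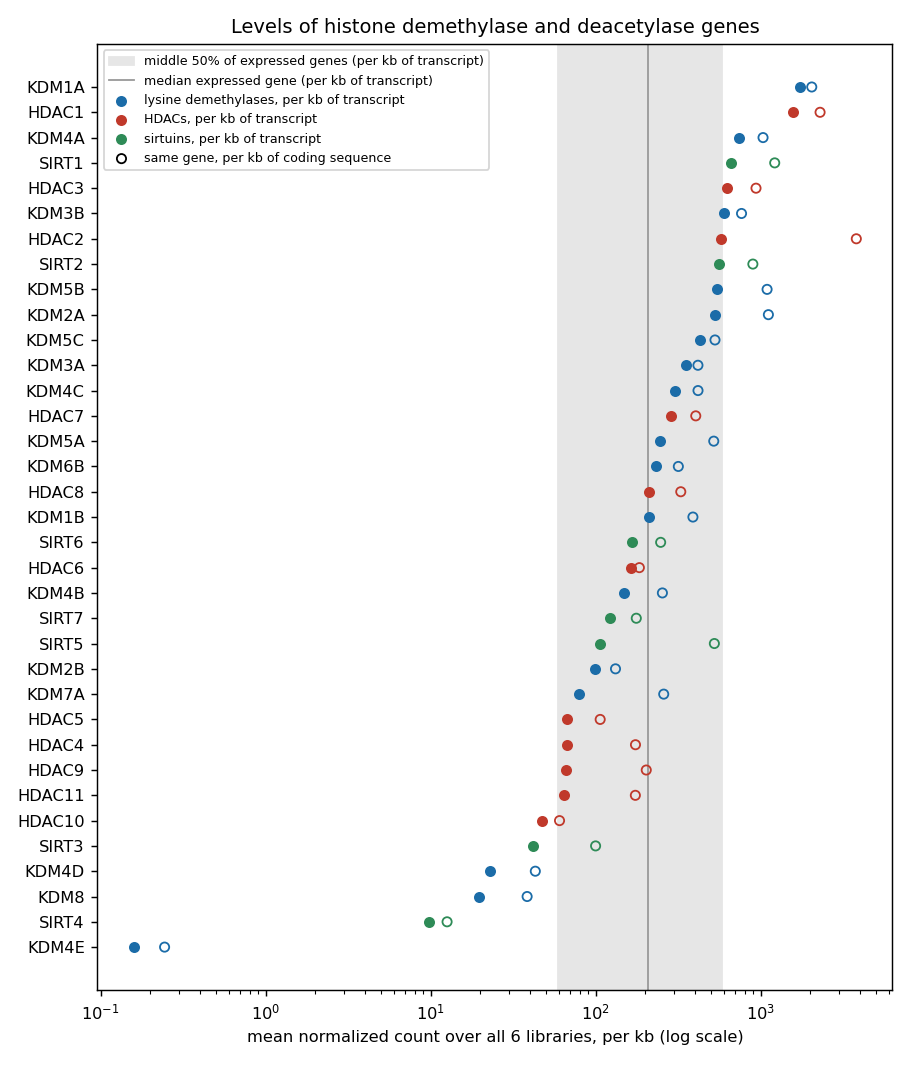
Mean normalized count over all 6 libraries per kb for the 35 members on a log axis, with filled points per kb of canonical transcript and open points per kb of coding sequence, coloured by family. The grey band runs from the lower to the upper quartile of expressed genes per kb of transcript and the line is their median (208.1 per kb). KDM1A and HDAC1 stand at the top on the transcript scale, HDAC2 moves furthest between scales, and KDM4E is at the bottom.

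Among the demethylases, KDM1A (LSD1) had the highest level. This flavin-dependent enzyme removes mono- and dimethyl groups from H3K4 and works with the CoREST scaffold and HDAC1 or HDAC2. KDM1A lies on chromosome 1 from 23019443 to 23083689 and its canonical transcript has 21 exons. Its mean normalized count was 5365, or 1739 per kb of transcript, at the 91.8 percentile of expressed genes. Its paralogue KDM1B, which is known for H3K4 demethylation in oocytes, was at 958.3, or 211.2 per kb. KDM1A thus carried 89.2% of the summed level of both genes per kb, and 27.6% of the sum over the 17 demethylases. Without division by length its share of the 17 was 15.6%.

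The KDM5 genes encode the Jumonji enzymes that remove di- and trimethyl groups from H3K4. KDM5B, known as a breast cancer-associated gene, was the highest of them at a mean normalized count of 5066 and 545.2 per kb. KDM5C, which is encoded on the X chromosome, followed with 2475 and 426.0 per kb. KDM5A was at 2635 in mean normalized count, but at 246.2 per kb, since its transcript of 10701 bases is the longest of the members. Per kb of transcript, all 3 KDM5 genes were above the median expressed gene, and the highest and lowest of them were 2.21-fold apart. Per kb of coding sequence KDM5A, at 519.7, was below the median gene.

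KDM4A and KDM3B had the highest levels of the KDM3 and KDM4 genes, which encode H3K9 demethylases. KDM4A acts on trimethylated H3K9 and H3K36 and had a mean normalized count of 3301 (735.9 per kb). KDM4C and KDM4B, enzymes with the same substrates, were at 304.7 and 148.9 per kb. KDM4D and KDM4E, which lack the reader domains of the other KDM4 proteins, were at 22.9 and 0.158 per kb. KDM4D and KDM4E are close on chromosome 11 (94973709 to 94999519 and 95025258 to 95027596), and the single exon of KDM4E and the 3 exons of KDM4D contrast with 22 in KDM4A. KDM4D and KDM4E are similar in sequence, so reads might be shared between them. The counter used was not given in the sources used here. KDM3B and KDM3A, which remove mono- and dimethyl groups from H3K9, were at 601.8 and 353.9 per kb.

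The other demethylases ranged widely. KDM2A, which removes methyl groups from H3K36 and binds unmethylated CpG DNA, had a mean normalized count of 3885 (526.0 per kb). Its paralogue KDM2B, known for bringing a variant Polycomb complex to CpG islands, was at 528.5 (99.4 per kb). KDM2A was 5.29-fold above KDM2B per kb. KDM6B, a demethylase of H3K27 known as an inducible gene of inflammatory signalling, was at 1563 (232.2 per kb). KDM7A, which removes methyl groups from H3K9 and H3K27, was at 729.7 (79.1 per kb), and KDM8 at 48.0 (19.7 per kb). KDM7A, KDM2B, KDM4B, KDM4D, KDM8 and KDM4E were below the median expressed gene per kb of transcript, and the other 11 demethylases were above it. Of those 11, KDM1B, at 211.2, was only just above the median of 208.1. Per kb of coding sequence KDM1B, KDM3A, KDM4C, KDM5A and KDM6B were also below the median gene.

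To show the promoters of members at different levels, the 250 bases before the annotated start are printed from RefSeq (GRCh38.p14), in the direction of transcription and with each CpG dinucleotide in capitals. A promoter was matched for 32 of the 35 members, and where RefSeq lists several starts the one nearest the start of the GENCODE canonical transcript was taken. For 30 members both starts were the same base. KDM1A is shown as the member of highest level per kb of transcript, KDM2A and KDM7A as those with the highest ratios of observed to expected CpG, KDM4D as a member of low level, and HDAC9 as the one with the fewest CpGs. They were chosen after their values were seen. The windows are chr1:23019218-23019467 (plus strand), chr11:67119013-67119262 (plus strand), chr7:140176984-140177233 (minus strand), chr11:94973459-94973708 (plus strand) and chr7:18495499-18495748 (plus strand).
KDM1A: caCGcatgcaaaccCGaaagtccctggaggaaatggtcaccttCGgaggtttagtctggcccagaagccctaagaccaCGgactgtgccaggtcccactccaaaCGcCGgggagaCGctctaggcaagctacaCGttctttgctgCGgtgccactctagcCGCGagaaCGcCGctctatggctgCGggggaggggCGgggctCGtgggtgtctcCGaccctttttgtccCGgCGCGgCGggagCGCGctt
KDM2A: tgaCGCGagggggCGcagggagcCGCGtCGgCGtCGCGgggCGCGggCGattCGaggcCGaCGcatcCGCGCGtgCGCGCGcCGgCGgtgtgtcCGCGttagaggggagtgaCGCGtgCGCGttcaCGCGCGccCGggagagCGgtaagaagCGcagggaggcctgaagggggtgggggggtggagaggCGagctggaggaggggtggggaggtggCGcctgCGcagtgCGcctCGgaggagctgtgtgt
KDM7A: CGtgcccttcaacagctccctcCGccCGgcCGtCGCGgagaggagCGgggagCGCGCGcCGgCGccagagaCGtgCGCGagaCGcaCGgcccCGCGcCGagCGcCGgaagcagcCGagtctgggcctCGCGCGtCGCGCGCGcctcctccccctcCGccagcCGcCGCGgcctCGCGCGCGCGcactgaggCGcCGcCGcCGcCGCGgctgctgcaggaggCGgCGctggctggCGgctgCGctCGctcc
KDM4D: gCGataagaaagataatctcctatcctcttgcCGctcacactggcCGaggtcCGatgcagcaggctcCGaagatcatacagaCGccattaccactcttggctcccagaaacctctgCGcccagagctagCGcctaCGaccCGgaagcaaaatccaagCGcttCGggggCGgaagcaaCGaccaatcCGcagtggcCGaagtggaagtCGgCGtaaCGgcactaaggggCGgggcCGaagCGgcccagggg
HDAC9: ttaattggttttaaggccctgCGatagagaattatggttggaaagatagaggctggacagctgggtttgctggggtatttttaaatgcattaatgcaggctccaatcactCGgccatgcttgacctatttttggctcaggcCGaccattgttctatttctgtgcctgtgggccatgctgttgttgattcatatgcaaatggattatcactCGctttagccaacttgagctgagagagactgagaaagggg

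The 5 windows held 23, 40, 50, 22 and 4 CpG dinucleotides in that order. The ratio of observed to expected CpG, where 1 means no depletion, was 0.90 for KDM1A, 1.30 for KDM2A, 1.21 for KDM7A, 0.95 for KDM4D and 0.33 for HDAC9. KDM4D, with an undivided mean normalized count of 67.6, therefore had about as many CpGs as KDM1A, at 5365. Over the 32 members the median was 22 CpGs and a ratio of 0.84, beside 22 and 0.84 over the 10369 expressed genes with a promoter. Across all genes, grouped by undivided count, the median ratio went from 0.35 at a mean normalized count under 1 to 0.87 at 1000 and over. Against the quartiles of genes in the same range of level, 15 members lay between the quartiles, 8 above the upper and 9 below the lower one. HDAC9 (0.33) and HDAC8 (0.49) had the lowest ratios of the members.

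Which start is read matters for genes with several. RefSeq lists 5 starts for HDAC9, and the canonical one lies inside the gene's span on chromosome 7 (18086949 to 19002416). The window of its most upstream start, 408924 bases from the canonical one, held 32 CpGs with a ratio of 1.04. HDAC4 also has 5 listed starts. The window nearest its canonical start held 33 CpGs (ratio 0.92), and the other 4 held between 2 and 9. Which of these starts was used in these cells cannot be told from a value per gene.

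**Figure D2:**
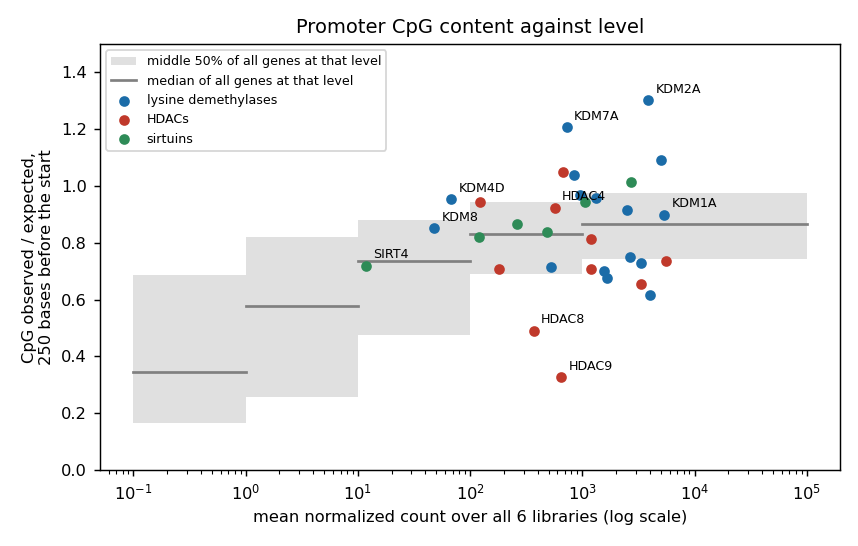
Ratio of observed to expected CpG in the 250 bases before the RefSeq start against the mean normalized count over all 6 libraries (log axis) for 32 members, coloured by family. Grey bands and lines give the quartile range and the median of all genes with a promoter in 5 ranges of level. Of the members, 15 lie within the band of their level, 8 above it and 9 below it, with KDM2A and KDM7A highest and HDAC9 and HDAC8 lowest.

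Short motifs were also counted in these windows on both strands, as a description of letters only. GGGCGG (the SP1 box) was in 20 of the 32 members' windows, or 62.5%, beside 64.4% of the listed genes with a promoter and 43.9% of all RefSeq genes. CCGGAAG (an ETS core) was in 7 of 32 (21.9%), beside 13.8% of listed genes and 9.07% of all RefSeq genes. CACGTG (an E-box) was in 4 of 32 (12.5%), those of SIRT1, KDM4C, KDM4B and HDAC4, beside 8.25% and 6.53%. TATAAA was in 1 of 32, that of SIRT4, beside 6.92% and 11.1%. The NRF1 core was in 2 of 32, those of SIRT6 and SIRT5, beside 1.73% and 1.18%. None of these motifs contains another. The listed genes here are all 13617 with a promoter, expressed or not, whereas the CpG medians were set beside the 10369 expressed ones. All 32 windows are of expressed genes, so these shares are not matched for level. With 32 windows a difference of a few matches carries little weight, and no test was made.

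Of the HDAC genes, HDAC1, HDAC2 and HDAC3 of class I had the highest levels, while HDAC8 of the same class was below HDAC7 of class IIa. HDAC1, HDAC2 and HDAC3 are the catalytic subunits of the nuclear corepressor complexes. HDAC1, on chromosome 1 from 32292083 to 32333635, had a mean normalized count of 3314 and 1565 per kb of transcript. HDAC2, on chromosome 6 from 113933028 to 114011308, had the highest mean normalized count of all 35 members (5565). Its level per kb depended on the length used. The canonical transcript of HDAC2 has 9737 bases, of which 85.0% are untranslated, which gave 571.5 per kb, while the coding sequence alone gave 3801 per kb. HDAC1 and HDAC2 thus changed places between these scales (1565 against 571.5 per kb of transcript, and 2292 against 3801 per kb of coding sequence). Which HDAC2 transcript ends were used in these cells cannot be told from a value per gene. HDAC3, the enzyme of the NCoR complex, was at 1203 (622.6 per kb), and HDAC8, which acts on cohesin, was at 371.0 (211.5 per kb).

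Per kb of transcript, the class II and IV deacetylases were below HDAC1, HDAC2 and HDAC3. The class IIa enzymes shuttle between cytoplasm and nucleus, bind MEF2 factors and have weak activity of their own. HDAC7 was the highest of them at 1202 (285.3 per kb), and HDAC5, HDAC4 and HDAC9 were at 67.4, 67.3 and 65.8 per kb of transcript. Per kb of coding sequence these 3 genes were further apart, at 106.5, 174.3 and 202.6. HDAC6, the cytoplasmic tubulin deacetylase, was at 670.6 (162.8 per kb). HDAC10, a polyamine deacetylase, was at 121.2 (47.2 per kb), and HDAC11, the only class IV enzyme, was at 181.1 (64.3 per kb). Per kb of transcript, 4 of 4 class I genes but 1 of 4 class IIa genes were above the median expressed gene. HDAC8, at 211.5, was only just above that median of 208.1. Per kb of coding sequence HDAC8, at 328.0, was below the median gene.

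Some of these values may be altered by reads shared with other genes, in a direction that cannot be told here. Annotated exons of another gene on the same strand overlap the canonical transcripts of 3 members, and exons on the opposite strand overlap those of 13. For HDAC10, exons annotated to MAPK12 cover 86.1% of its transcript on the same strand. For HDAC8 and KDM4A, protein-coding genes named only by an Ensembl identifier cover 68.0% and 46.5% on the same strand. On the opposite strand, the largest overlaps were 35.5% of the HDAC10 transcript (a long non-coding RNA), 23.4% of HDAC5 (G6PC3) and 23.2% of SIRT5 (a long non-coding RNA). The library kit marks strand, but whether the counting used it is not given in the sources used here.

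Sirtuins are grouped by where they act. Of the nuclear sirtuins, SIRT1, which deacetylates histones and transcription factors including p53 and the NF-κB subunit RELA, was the highest of the family with a mean normalized count of 2727 (664.1 per kb). SIRT6, which acts on acetylated H3K9, was at 263.8 (164.9 per kb). SIRT7, which acts in the nucleolus and on acetylated H3K18, was at 211.5 (122.6 per kb). SIRT2, a mostly cytoplasmic tubulin deacetylase, was at 1047 (562.2 per kb). The mitochondrial sirtuins were lower per kb of transcript. SIRT5, a desuccinylase, was at 487.4 (106.8 per kb), SIRT3, the main mitochondrial deacetylase, at 119.6 (41.5 per kb), and SIRT4 at 11.8 (9.73 per kb). SIRT5 reached 524.1 per kb of coding sequence, since 79.6% of its canonical transcript is untranslated. SIRT1 held 39.7% of the family's summed level per kb of transcript.

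Eraser genes were set beside the genes of the writers of the same histone lysine. For H3K4, the 5 demethylase genes (KDM1A, KDM1B, KDM5A, KDM5B and KDM5C) summed to 3168 per kb, and 6 methyltransferase genes (SETD1A, SETD1B, KMT2A, KMT2B, KMT2C and KMT2D) summed to 759.6 per kb. The ratio was 4.17. Each of the 5 demethylase genes was above every one of the 6 methyltransferase genes per kb, the lowest demethylase being KDM1B at 211.2 and the highest methyltransferase SETD1A at 194.3. The ratio was 2.53 without the highest gene on each side, and 1.78 where the mean normalized counts were not divided by length. On that undivided scale KDM1B (958.3) was below KMT2A (2835), so the full separation holds only per kb. For H3K9, 6 demethylase genes were counted (KDM3A, KDM3B, KDM4A, KDM4B, KDM4C and KDM4D). KDM4E, KDM7A and the Jumonji genes that carry other names, among them PHF2, PHF8 and JMJD1C, were left out. The 6 counted summed to 2168 per kb and the 6 methyltransferase genes (EHMT1, EHMT2, SUV39H1, SUV39H2, SETDB1 and SETDB2) to 1550 per kb. The ratio was 1.40. For H3K36, KDM2A and KDM2B summed to 625.4 per kb and the 5 methyltransferase genes (SETD2, NSD1, NSD2, NSD3 and ASH1L) to 2098 per kb, a ratio of 0.298. H3K36 was named above as a substrate of KDM4A, KDM4B and KDM4C, but not of KDM4D (22.9 per kb). With KDM4A, KDM4B, KDM4C and KDM4D all counted for H3K36 too, the ratio was 0.876. Without these KDM4 genes, and without the highest gene on each side, it was 0.0690, with KDM2B as the only demethylase left. These are sums of transcript levels and not of enzyme activity, and they have no error.

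**Figure D3:**
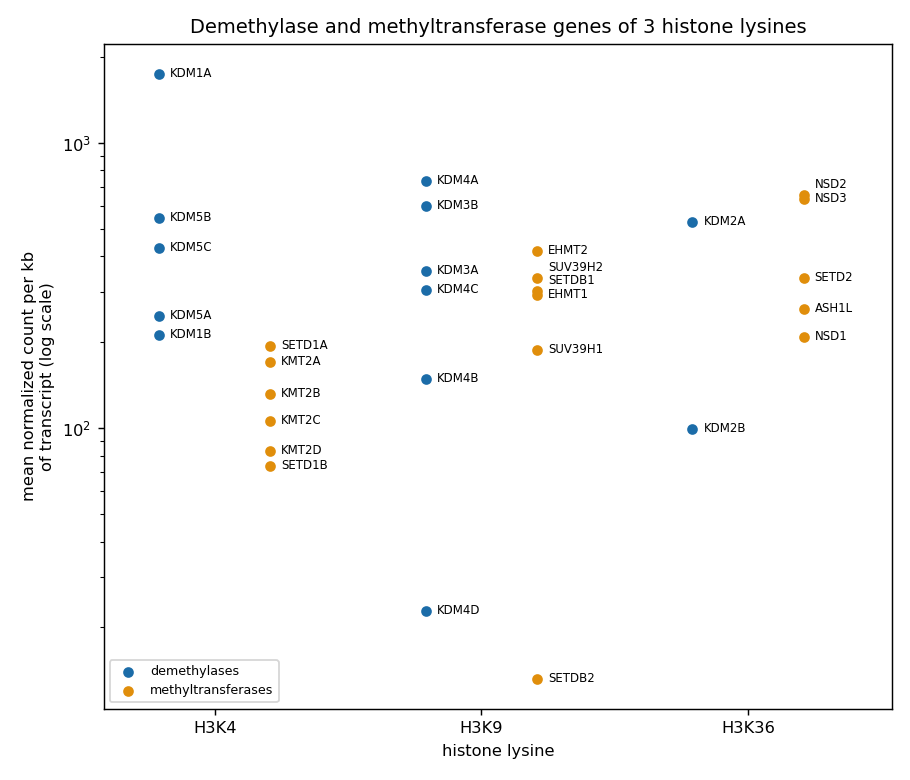
Mean normalized count over all 6 libraries per kb of canonical transcript (log axis) for each demethylase gene and each methyltransferase gene of H3K4, H3K9 and H3K36, with crowded labels moved up from their points. The 5 H3K4 demethylase genes lie above all 6 H3K4 methyltransferase genes, whereas the points of both kinds overlap for H3K9 and H3K36.

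HDAC1, HDAC2 and HDAC3 act inside larger complexes, and the other subunits were expressed as well. All 11 NuRD genes listed were at 169.6 per kb or more, with RBBP7 at 1914, RBBP4 at 1756 and the motor subunits CHD3 and CHD4 at 1024 and 956.9. RBBP4 and RBBP7, histone-binding chaperones that several complexes share, thus lay above HDAC1. The 10 SIN3 genes ranged from 140.1 (ING2) to 992.1 (SAP30), with the scaffolds SIN3A and SIN3B at 348.1 and 176.6 per kb. The 4 NCoR complex genes described ranged from 192.7 (TBL1X) to 813.4 (GPS2), and the scaffold NCOR1 was at 558.1 per kb. Of the CoREST scaffolds, which tie KDM1A to HDAC1 and HDAC2, RCOR1 was at 383.5, RCOR3 at 170.9 and RCOR2 at 12.6 per kb. The 3 CoREST scaffold genes summed to 567.1 per kb of transcript, beside 1739 for KDM1A. Per kb of coding sequence the gap between that sum and KDM1A nearly closed. RCOR1 was at 1516, RCOR3 at 460.9 and RCOR2 at 23.5, beside 2041 for KDM1A. DNTTIP1 and MIDEAS, subunits of the mitotic deacetylase complex, were at 1050 and 344.3 per kb. The 10 histone acetyltransferase genes, which place the marks that HDACs remove, ranged from 171.4 (KAT7) to 1249 (HAT1), with EP300 at 392.5 and CREBBP at 241.2. Jumonji genes that carry other names were also listed, and 8 of them ranged from 22.5 (HR) to 398.1 (JMJD6) per kb.

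**Figure D4:**
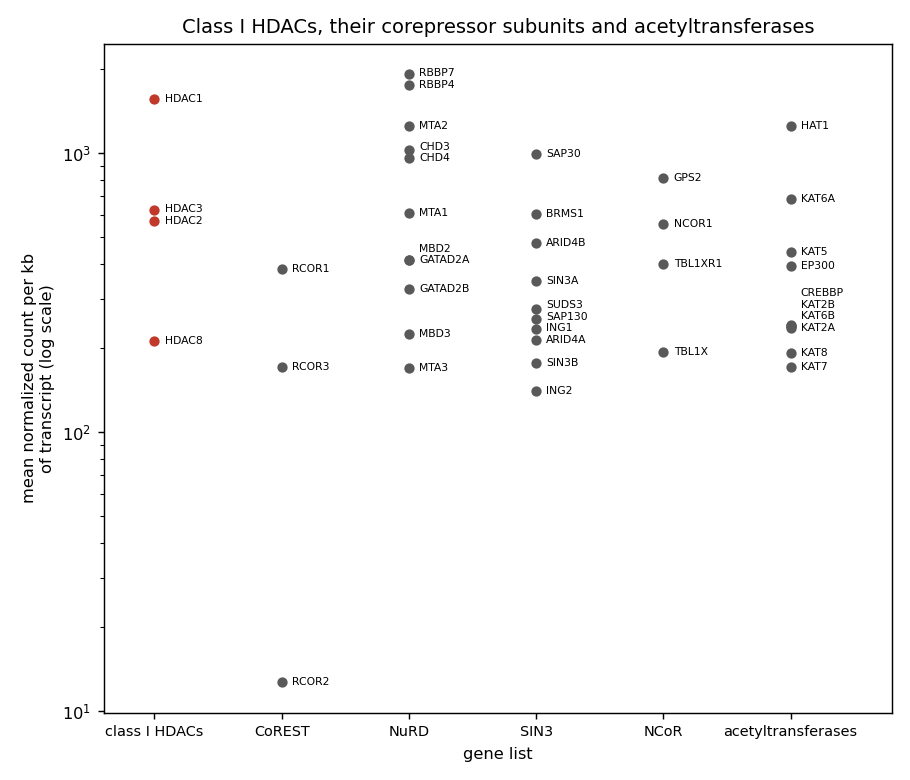
Mean normalized count over all 6 libraries per kb of canonical transcript (log axis) for the 4 class I HDAC genes, for subunits of the CoREST, NuRD, SIN3 and NCoR complexes and for 10 histone acetyltransferase genes, with crowded labels moved up from their points. RBBP7 and RBBP4 lie above HDAC1, and RCOR2 is the lowest point at 12.6 per kb.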

How the data were processed

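RNA-seq was performed on 3 vehicle and 3 DOX cultures of BT-549 cells with an inducible WDR5 shRNA. By the methods of the paper, libraries were stranded and poly(A)-selected, and the authors aligned reads to GRCh38 with STAR and normalized and compared gene counts with DESeq2. The sample records and the methods name different RNA extraction reagents. The counter and any filter are not given in the sources used here, nor is an annotation, apart from a suffix to the build's name in the methods. The deposited table lists genes by symbol, without values of single samples. The authors averaged the normalized count, here treated as a signal value, over all 6 libraries. The other 5 columns of the table hold the authors' own log2 fold change of DOX against vehicle, standard error, statistic, p-value and adjusted p-value, and were not used. No test could therefore be made of DOX against vehicle, although one was planned for columns of single samples. No interval or detection limit is given, since library depth is unknown.

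Members were rows whose symbol is KDM1 to KDM8 with a letter or none, HDAC with a number, or SIRT1 to SIRT7, with named exceptions. These, and 1 gene of a partner list, are not reported here. The members and gene lists were chosen with earlier results of these data known. All members are named, beside the genes of the lists of partners, writers and acetyltransferases. Of 19792 symbols, 17729 matched GENCODE 44 directly, 594 through a RefSeq synonym and 1469 did not match. Lengths are those of the Ensembl canonical transcript, a choice made after the data were seen, with coding length and no length as alternatives. Percentiles are over genes with a length whose mean normalized count reached 10. Of several RefSeq promoters, the one nearest the GENCODE canonical start was used, also a choice made after values were seen. Expected CpG is the product of the C and G counts over the window length. Functions were tested on simulated data. Computation used Python 3.11.15, numpy 2.4.6, pandas 2.3.3 and matplotlib 3.10.9.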

Additional observations from a re-analysis of the deposited data

How the results depend on the processing

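The 10 members of highest level per kb of transcript were also the 10 highest per kb of coding sequence, and 8 of them were among the 10 highest when the mean normalized count was not divided by length. The number of members at or above the median gene was 18 per kb of transcript, 11 per kb of coding sequence and 19 without length. It was 24 per kb of transcript over all 18323 genes with a length, whatever their count. Over those 18323 genes, the members' median percentile was 64.7, against 50.4 over expressed genes. With coding length, the highest member held 43.9% of the HDAC sum (HDAC2), 21.8% of the demethylase sum (KDM1A) and 38.3% of the sirtuin sum (SIRT1), and without length 39.2%, 15.6% and 56.0%. The ratios of demethylases to methyltransferases for H3K4, H3K9 and H3K36 were 4.90, 1.18 and 0.323 with coding length, 1.78, 1.84 and 0.215 without length, and 2.53, 1.26 and 0.0690 without the highest gene on each side. With the KDM4 genes of the H3K9 list also counted for H3K36, KDM4D among them, the ratio was 0.876. That choice was made after the data were seen. No ratio crossed 1 under any of these. With the first listed RefSeq promoter of each gene, which was used at first, the members' median CpG ratio was 0.84 as before, but the ratio of HDAC4 was 0.11 in place of 0.92, from a start 126239 bases inside the gene. No paired analysis was possible because the values analysed are means over all 6 libraries, with no column of a single sample. For the same reason the planned fits of DOX against vehicle, and those leaving out a replicate, were not run. The planned protein identities were not run, since no protein table was used here. Depth limits the values of KDM4E and SIRT4 most, with mean normalized counts of 0.370 and 11.8.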
